A study of Mus musculus with 4 samples.

Results

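The regions described here were stretches of open chromatin that lay deep inside gene deserts and were found in every library of the study. They were chosen by 3 measured properties. A peak had to be listed in all 4 libraries, the merged region had to be under 2000 bp wide, and its midpoint had to lie more than 100 kb from the span of every protein-coding gene. Of 39843 merged regions on chromosomes 1 to 19 and X, 18904 were shared by the 4 libraries and 1368 met all 3 conditions, which was 7.24% of the shared regions and 3.43% of all regions. Presence in the 4 lists, width and position therefore describe the choice and are not findings.

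The study profiled chromatin accessibility by ATAC-seq, in which a transposase cuts and tags open DNA, in mouse palatal mesenchyme at E14.5. Green fluorescent cells were sorted from embryos that carry a Cre recombinase at the Shox2 locus and the mTmG reporter, so the sorted cells are those with a history of Shox2-driven Cre. The 2 control libraries had the genotype Shox2Cre/+;Nkx2.5F/F;R26RmTmG and the 2 mutant libraries Shox2Cre/-;Nkx2.5F/F;R26RmTmG. Controls thus kept 1 intact Shox2 allele and mutants kept none. Both groups carried floxed Nkx2.5, an allele that Cre can excise, on both chromosomes, so that neither group stands for wild-type cells. Whether the sorted cells of either group had lost Nkx2.5 was not measured. Per the labels 50000 cells were pooled for each group, and the labels do not say whether the libraries of a group came from separate embryos. Any spread between them may therefore be technical. In pooled cells, a smaller share of cells with an open region and a less open region in each cell cannot be told apart.

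Gene deserts are long intervals without protein-coding genes, and many of those beside developmental genes hold enhancers, which are sequences that raise transcription of a gene over a long distance through looping of the chromatin. In the developing face, deserts of this kind are known to hold tissue-specific enhancers of craniofacial genes. Shox2 encodes a homeodomain transcription factor needed for growth of the anterior palate. An accessible region is a candidate regulatory element only, and neither its activity nor its target gene was measured.

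The 4 peak lists held 22959 to 31821 peaks on these chromosomes, control 2 having the shortest. Read depth is not given in them. A shared region whose midpoint lay within 1 kb of an end of the gene was found for 11 of 30 listed palate mesenchyme transcription factors, against 50.03% of all protein-coding genes. Those with one included Alx1, Mn1, Tbx3 and Foxd1, and those without one by this measure included Shox2, Osr1, Prrx1 and Pax9. A region that covers a gene end with its midpoint more than 1 kb away was not counted. Absence by this measure therefore does not show that a gene end was closed. The counts were 4 of 20 for epithelial regulators, 7 of 28 for neuron regulators, 4 of 15 for skeletal muscle regulators and 7 of 21 for endothelial and blood regulators. The palate list, at 36.7%, stood little above the endothelial and blood list, at 33.3%, and below the genome as a whole. Neural crest transcription factors had 9 of 25 (36%) and bone and cartilage regulators 7 of 24 (29.2%). The lists of mesenchyme and skeleton thus did not all stand above those of other cell types.

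Few of the desert regions lay at a known transcript start, and those that did are the ones whose sequence can be shown. RefSeq promoter windows of the GRCm38.p6 assembly, from 250 bases before to 50 after a start, overlapped 50 regions (3.65%), and 40 regions held a long non-coding RNA promoter whole. The 5 promoters below were chosen because the first 3 lie in highly ranked regions and the last 2 in deserts that hold many shared regions. Capitals mark every match, on either strand, to 6 short motifs, namely the AP-1 site TGANTCA, the TEAD site GGAATG, the homeodomain site TAATTA, the MEIS site TGACAG, the E-box CATATG and the GC box GGGCGG. The windows lie at chr1:7398047-7398346 (minus strand), chr11:26210527-26210826 (minus), chr16:50732724-50733023 (minus), chr4:29067829-29068128 (plus) and chr16:77329078-77329377 (plus), in the order printed.
Gm26901: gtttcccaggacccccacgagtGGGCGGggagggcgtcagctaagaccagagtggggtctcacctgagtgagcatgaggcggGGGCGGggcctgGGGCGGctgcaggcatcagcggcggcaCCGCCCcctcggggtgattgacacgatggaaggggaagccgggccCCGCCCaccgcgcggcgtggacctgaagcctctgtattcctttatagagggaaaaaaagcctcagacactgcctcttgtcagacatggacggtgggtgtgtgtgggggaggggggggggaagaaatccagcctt
5730522E02Rik: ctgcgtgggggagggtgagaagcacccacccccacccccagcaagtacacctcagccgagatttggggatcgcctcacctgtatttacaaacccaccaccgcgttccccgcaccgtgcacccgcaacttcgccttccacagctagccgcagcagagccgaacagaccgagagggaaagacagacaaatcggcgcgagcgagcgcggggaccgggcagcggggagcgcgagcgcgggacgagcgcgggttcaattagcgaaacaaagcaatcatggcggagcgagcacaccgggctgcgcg
Dubr: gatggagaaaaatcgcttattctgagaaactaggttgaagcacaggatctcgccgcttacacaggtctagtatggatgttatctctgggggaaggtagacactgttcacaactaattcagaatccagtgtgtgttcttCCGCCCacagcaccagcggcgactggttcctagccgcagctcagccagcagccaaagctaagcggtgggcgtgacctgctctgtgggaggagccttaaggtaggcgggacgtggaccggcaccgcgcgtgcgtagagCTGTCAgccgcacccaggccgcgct
Gm11917: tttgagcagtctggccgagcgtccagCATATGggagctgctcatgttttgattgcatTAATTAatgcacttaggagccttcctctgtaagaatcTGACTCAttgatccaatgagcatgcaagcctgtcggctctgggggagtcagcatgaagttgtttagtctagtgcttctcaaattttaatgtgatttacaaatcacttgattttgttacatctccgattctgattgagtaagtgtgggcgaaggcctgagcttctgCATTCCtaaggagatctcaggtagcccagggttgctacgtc
Mir99ahg: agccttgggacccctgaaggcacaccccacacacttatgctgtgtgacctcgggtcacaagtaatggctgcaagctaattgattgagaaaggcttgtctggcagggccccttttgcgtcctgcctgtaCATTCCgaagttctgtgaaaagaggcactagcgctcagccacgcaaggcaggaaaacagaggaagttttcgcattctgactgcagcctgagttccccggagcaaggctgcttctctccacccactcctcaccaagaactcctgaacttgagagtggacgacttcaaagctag

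Gm26901, between Pcmtd1 and Sntg1, had a window of 65.7% G and C with 5 GC boxes. Its region had fold enrichments of 12.8 and 12.7 in controls, 12.7 and 13.1 in mutants, so the 4 libraries were nearly equal. Its summits, the highest points of the peaks, lay 3 to 61 bases before the annotated start. The 5730522E02Rik window, between Bcl11a and Fancl, held 33 CpG pairs and no match to any of the 6 motifs. Dubr, a long non-coding RNA between Ccdc54 and Cblb, held 1 GC box and 1 MEIS match. The Gm11917 window, between Epha7 and Map3k7, held 1 match each to the AP-1, TEAD, homeodomain and E-box letters. Mir99ahg, the host transcript of a microRNA cluster between Usp25 and Cxadr, held 1 TEAD match.

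Promoters at the desert regions were richer in G and C than promoters beyond the same 100 kb limit that lay in no region. Of 2069 long non-coding RNA promoters beyond 100 kb, 59 overlapped one of the desert regions and 1922 lay in no region of any library. The 59 had a median content of G and C of 49.7%, and 23.7% of them held a GC box. The median content of G and C was 52.3% for the 47 promoters wholly inside a desert region, 44.7% for those in no region and 53.0% for all 32619 promoters of the table. A GC box was present in 27.7%, 4.89% and 35.9% of these 3 sets. The AP-1 letters were present in 6.38%, 10.6% and 7.85%, the TEAD letters in 27.7%, 16.5% and 14.6%, and the homeodomain letters in 6.38%, 9.52% and 5.25%. The MEIS letters were present in 27.7%, 21.9% and 18.9%, and the E-box letters in 6.38%, 7.60% and 3.82%. Among the 47 promoters, 6.38% stands for only 3. These are descriptions of letters in a window, several promoters share a gene, and the windows say nothing of regions without an annotated start.

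Of 1005 microRNA hairpins in RefSeq, 4 lay inside desert regions, and 3 of them belonged to the Mir344 family, between Gm51483 and Ndn on chromosome 7. The mature sequences of that family are shown with those of Mir802 because they are the only microRNAs in these regions. Capitals mark the seed, bases 2 to 8, which pairs with target transcripts.
mmu-miR-344-3p: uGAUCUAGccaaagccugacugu
mmu-miR-344-5p: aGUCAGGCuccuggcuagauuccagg
mmu-miR-344i: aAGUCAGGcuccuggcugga
mmu-miR-802-5p: uCAGUAACaaagauucauccuu
mmu-miR-802-3p: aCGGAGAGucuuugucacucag

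Mir344 and Mir344-2 encode the same mature sequences, and the seed of miR-344i is that of miR-344-5p moved by a single base. The Mir344 region (chr7:61877279-61878193) had fold enrichments of 8.51 and 7.75 in controls, 7.53 and 6.56 in mutants. The Mir344-2 region (chr7:61939755-61940681) had 10.9 and 8.40 in controls, 9.28 and 12.1 in mutants. The Mir344i region (chr7:62085025-62085701) had 9.49 and 9.52 in controls, 11.6 and 10.5 in mutants. The groups overlapped at Mir344-2, while by fold both mutants were lower at Mir344 and higher at Mir344i. By percentile among shared regions the groups overlapped at Mir344i and not at Mir344. The region at Mir802 (chr16:93369032-93370196), between Runx1 and Setd4, had folds of 6.06 and 5.04 in controls, 6.56 and 5.33 in mutants, and the groups overlapped.

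Shared regions were sparser at greater distance from genes. Of 5041 regions beyond 100 kb in any library, 1754 were listed in 1 library, 1015 in 2, 896 in 3 and 1376 in all 4, so that 27.3% were shared. The shared fraction was 83.9% at gene ends, 35.3% inside genes and 31.9% at 1 to 100 kb. Within the deserts it did not fall steadily, being 27.6% at 100 to 200 kb, 27.9% at 200 to 500 kb, 24.4% at 500 to 1000 kb and 26.6% beyond 1000 kb. Of the 1376, 8 were at or over the width limit. Shared regions numbered 3.86 per Mb at 10 to 100 kb from a gene, 2.71 at 100 to 200 kb, 1.99 at 200 to 500 kb, 0.979 at 500 to 1000 kb and 0.608 beyond 1000 kb. The median desert region lay 225 kb from its nearest protein-coding gene, with quartiles of 145 and 367 kb, and 45 regions lay beyond 1000 kb.

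**Figure D1:**
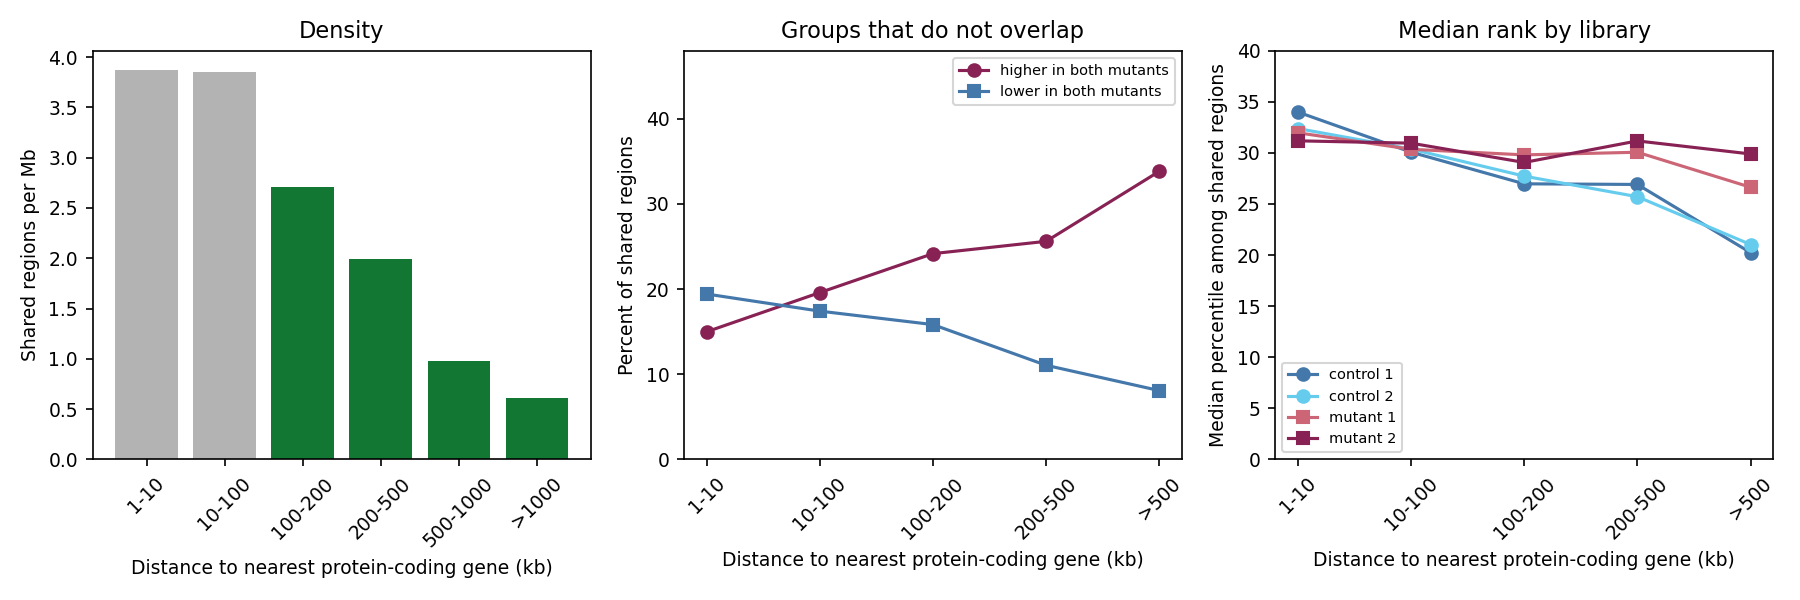
Shared regions under 2000 bp wide by distance to the nearest protein-coding gene in kb. The left panel gives regions per Mb of sequence at that distance (green bars are the desert regions), the middle panel the percent ranked higher, or lower, in both mutants than in both controls, and the right panel the median percentile in each library; density falls from 3.87 to 0.608 per Mb while the percent higher in both mutants goes from 15.0 to 33.8.

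Many of the desert regions were not empty of all genes. The midpoint of 296 (21.6%) lay inside a gene that does not code for protein, nearly always a long non-coding RNA, and 259 (18.9%) lay more than 100 kb from every gene of any kind. Regions were mostly isolated, the median distance from 1 to the next being 123 kb. Density differed between chromosomes, from 0.482 per Mb of desert on X and 1.06 on chromosome 19 to 3.01 on chromosome 13.

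Desert regions ranked lower by p-value than other shared regions, while by fold enrichment they lay below those at gene ends only. Each peak was ranked within its library by its deposited −log10 p and given a percentile, where 100 is the strongest peak. The lowest of a region's 4 percentiles had a median of 33.6 in the desert regions, against 72.0 for shared regions at gene ends, 43.5 inside genes and 38.3 at 1 to 100 kb. It exceeded 75 in 64 desert regions (4.68%). The median fold enrichment of the desert regions was 7.65 and 6.87 in controls, 7.28 and 7.70 in mutants, control 2 being lowest. In the same order of libraries it was 9.08, 8.27, 8.52 and 8.86 at gene ends, 7.45, 6.75, 6.89 and 7.29 inside genes, and 7.54, 6.81, 6.99 and 7.38 at 1 to 100 kb, so by fold the desert regions lay below gene ends and slightly above the other places in all 4 libraries. Spearman correlations of rank between pairs of libraries ran from 0.707 to 0.787 over the 1368 desert regions and from 0.913 to 0.934 over all 18904 shared regions. These are descriptions over regions of the same libraries, and the part of the narrower range of ranks in the deserts was not tested.

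**Figure D2:**
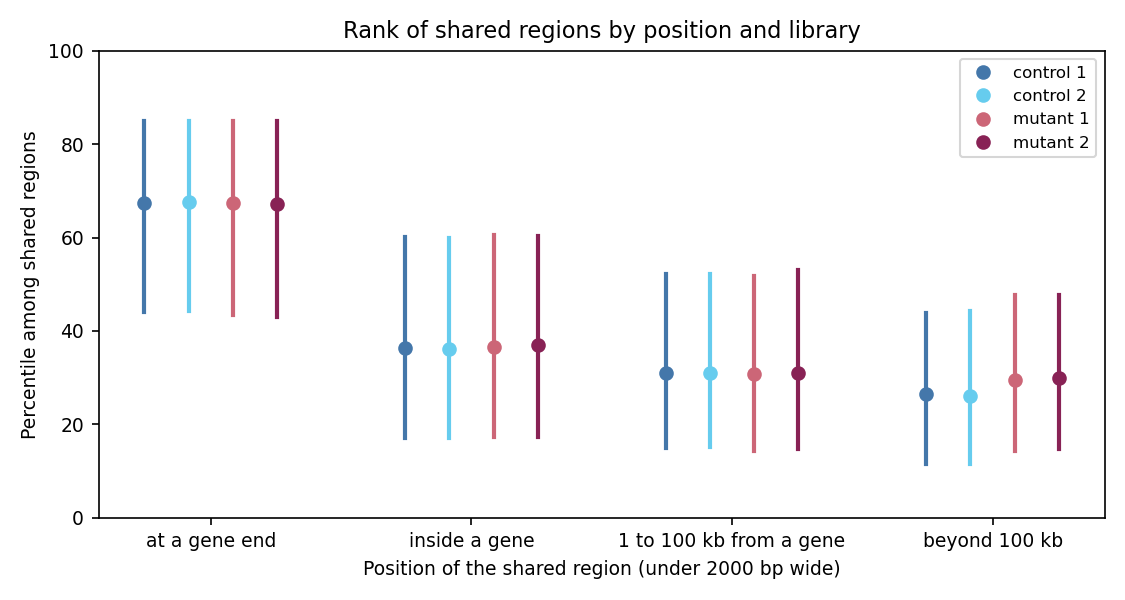
Percentile of shared regions among all shared regions (0 to 100, by deposited −log10 p) by position and library. Points are medians and lines run from the first to the third quartile of regions; the 4 libraries lie close together at gene ends, inside genes and at 1 to 100 kb, while beyond 100 kb the medians are 26.5 and 26.1 in controls, 29.5 and 29.97 in mutants.

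The most highly ranked desert regions were chosen for their lowest percentile and so were high in every library by choice. A region between Pex2 and 1700008P02Rik (chr3:5860268-5860965), 282 kb from Pex2, had folds of 26.6 and 23.3 in controls, 25.3 and 24.6 in mutants, and the groups overlapped. A region 163 kb from Akr1e1 and 1090 kb from Klf6 (chr13:4771154-4772361) had 13.3 and 13.3 in controls, 14.2 and 15.4 in mutants, with both mutants higher. Klf6 encodes a zinc finger transcription factor. A region between Tnc, which encodes the matrix protein tenascin C, and Pappa, a protease of insulin-like growth factor binding proteins, had 14.1 and 12.7 in controls, 12.6 and 13.3 in mutants (chr4:64437333-64438520). A region between Cdh11 and Cdh5 (chr8:103408893-103409750) had 13.0 and 14.46 in controls, 14.7 and 14.3 in mutants. A region 109 kb from Jun, a subunit of AP-1, had 12.9 and 11.1 in controls, 12.4 and 12.9 in mutants (chr4:95160959-95161934). By fold the groups overlapped in each of these last 3. By percentile among shared regions the Jun region had 96.1 and 94.8 in controls, 96.4 and 96.8 in mutants, which did not overlap. A region between Eipr1 and Myt1l (chr12:29290670-29291558) had folds of 18.7 and 15.2 in controls, 18.1 and 18.0 in mutants, and the groups overlapped.

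One of the 10 most highly ranked regions had much lower folds than the rest. It lay between Esp15 and Esp38 (chr17:39847530-39848806), had percentiles of 97.8 or more within each whole list, and yet had folds of only 2.21 and 2.23 in controls, 2.22 and 2.30 in mutants. The gene table places Rn18s-rs5, a ribosomal RNA related sequence, there. A neighbouring shared region of 3602 bp was left out by the width limit. Since no source used here says how reads of repeated ribosomal sequence were placed, this region is uncertain. No desert region was checked for repeated sequence. That holds also for the region beside Pex2, whose fold was the highest of all desert regions in every library.

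The deserts with the most regions included those beside a pair of cadherin genes and beside genes of the ephrin system. Of 1537 deserts with sequence beyond 100 kb, 613 (39.9%) held at least 1 region and 67 held 5 or more, which together had 401 regions (29.3%). The desert between Cdh11, a cadherin of mesenchymal cells, and Cdh5, the cadherin of endothelium, held 11. The desert between the ephrin receptor gene Epha7 and the kinase gene Map3k7 also held 11. Deserts between Slc10a2 and the ephrin gene Efnb2, and between the transcription factor gene Zeb2 and the activin receptor gene Acvr2a, held 10 each. The desert between Prok2 and Rybp held 7 in 0.302 Mb, or 23.2 per Mb, against 1.85 per Mb over all deserts. Long deserts could also be bare: of 217 with at least 1 Mb of such sequence 68 held none, the largest being the 4.08 Mb between Cntnap5b and Cdh20.

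**Figure D3:**
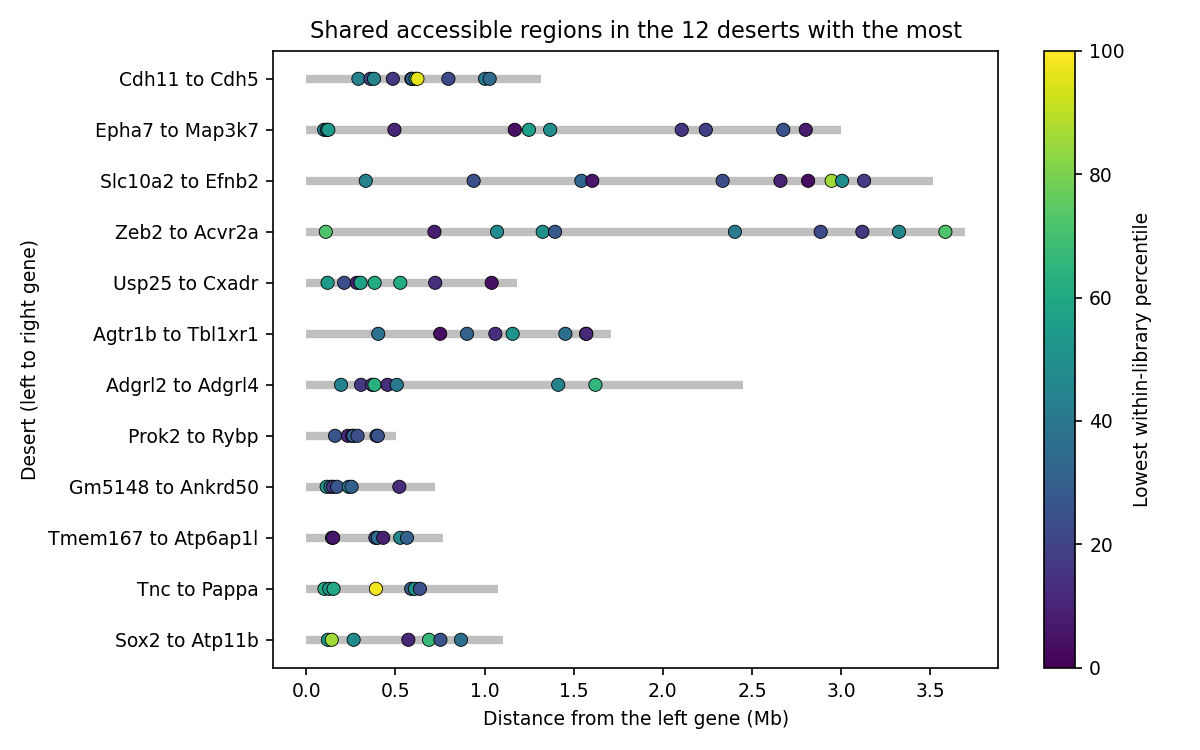
Positions of shared regions (points) along the 12 deserts that hold the most, as distance in Mb from the gene on the left; grey bars span the desert and colour gives the lowest of the 4 within-library percentiles. Cdh11 to Cdh5 and Epha7 to Map3k7 hold 11 each, and the Prok2 to Rybp regions lie within 0.502 Mb.

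Of the 13 gene lists examined, 9 had denser deserts than the average, and 2 of these, the neural crest and the bone and cartilage lists, fell below it when only the upper 50% of each peak list was used. All bordering genes together had 1.85 regions per Mb, and 1119 of 2598 (43.1%) flanked at least 1 region. A list of AP-1, NFI, TEAD, EBF and Krüppel-like (KLF) transcription factor genes flanked regions in 9 of 11 cases, at 5.01 per Mb. Its count of 34 was mostly beside KLF genes, since Klf12 flanked 9, Klf6 7, Klf4 4 and Klf5 3. Nfia and Nfib flanked 4 each, Jun 3, Maf 2, Ebf1 1 and TEAD genes 0. A region between 2 genes of the list counts for both genes here and once in the 34. Ligands, receptors and modulators of FGF, WNT and hedgehog signalling did so in 15 of 20 cases, at 5.003 per Mb. The palate mesenchyme transcription factors had 8 of 18 genes, 16 regions and 3.27 per Mb, and the BMP, TGF-beta and activin genes 8 of 12, 16 regions and 3.09 per Mb. Patterning homeobox and zinc finger genes had 18 of 28 genes, 47 regions and 2.62 per Mb, bone and cartilage regulators 6 of 10, 19 regions and 2.33 per Mb, and neural crest transcription factors 10 of 19, 33 regions and 2.13 per Mb. Guidance and adhesion genes flanked the most regions, 175, with 41 of 50 genes, in deserts of 118 Mb, which was 1.48 per Mb. Density fell with distance from genes and the lists were not matched for desert size. The part of desert size in these densities was not tested.

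Lists of other cell types were not uniformly low. Skeletal muscle regulators had 10 regions at 5.51 per Mb in 1.81 Mb, and endothelial and blood regulators 17 at 3.79 per Mb, of which 11 lay in the Cdh11 to Cdh5 desert and count because of Cdh5. Neuron regulators had 16 regions at 1.83 per Mb. Epithelial regulators had 0 in 0.231 Mb, an interval too short to say more, and olfactory and vomeronasal receptor genes had 4 regions, 3 of 26 bordering genes and 0.756 per Mb. A desert region has 2 flanking genes and was counted for either, so a density is no statement of which gene it acts on.

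**Figure D4:**
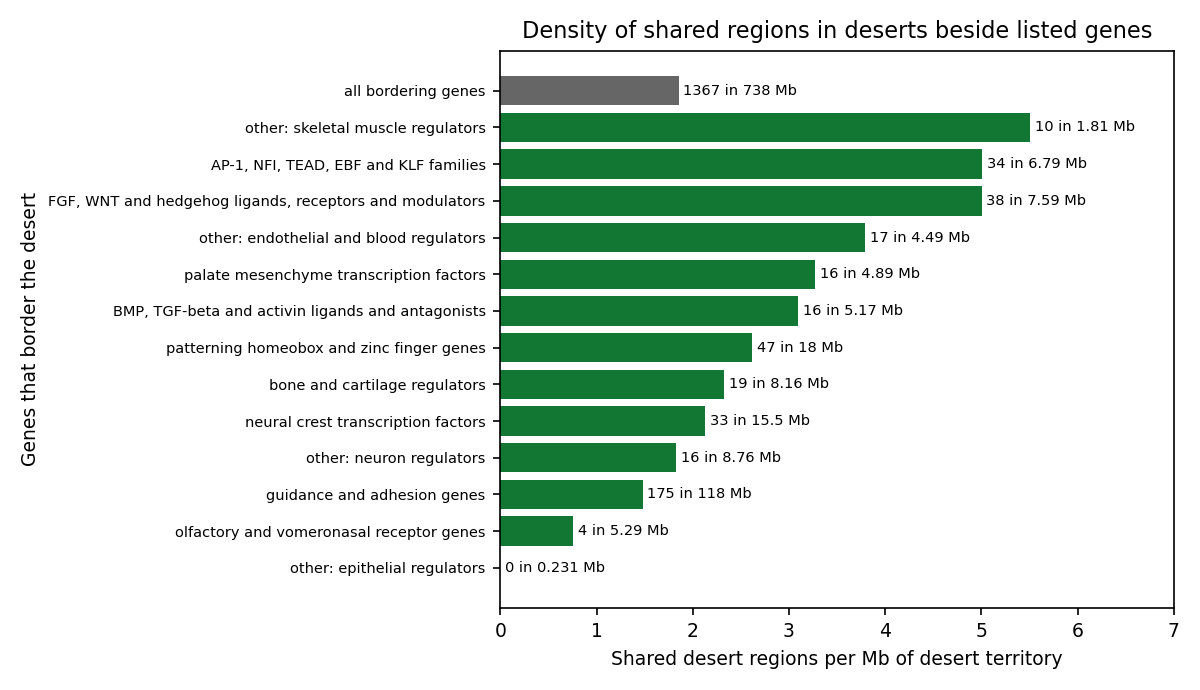
Shared desert regions per Mb of sequence beyond 100 kb, for deserts that border genes of each list; the grey bar is all bordering genes (1.85 per Mb) and the text at each bar gives the regions and the Mb behind it. The AP-1, NFI, TEAD, EBF and KLF list, most of whose regions are beside KLF genes, stands at 5.01, the FGF, WNT and hedgehog list at 5.003, and olfactory and vomeronasal receptor genes at 0.756.

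Among the palate transcription factors, Shox2 itself flanked 1 region, 386 kb away on the side of Veph1 (chr3:66584863-66586680). Its folds were 6.46 and 6.15 in controls, 6.55 and 7.29 in mutants. Its percentiles among shared regions were 37.1 and 41.8 in controls, 50.4 and 58.1 in mutants, both mutants being higher. Nkx2-5 bordered no sequence beyond 100 kb. Osr1, a zinc finger gene expressed in palatal mesenchyme, flanked 5 regions, of which 2 were lower in both mutants and 0 higher by percentile among shared regions, where 18.0% of all shared regions were lower and 17.6% higher. By percentile in the whole list 0 of the 5 were lower. The strongest of these (chr12:9915418-9916582) had folds of 12.3 and 8.36 in controls, 9.24 and 10.4 in mutants, which overlapped. Mn1, a transcriptional regulator whose loss gives cleft palate in mice, flanked 3 regions, and Alx1, a homeobox gene of the frontonasal mesenchyme, flanked 2.

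Among signalling genes, Bmp4, a growth factor of the palatal mesenchyme, flanked 5 regions on the side of Ddhd1, at 161 to 557 kb. Of these, 0 were higher and 1 was lower in both mutants by the same percentile, a count near the background of 18.0%. Spry2, an inhibitor of FGF receptor signalling, flanked 6, the strongest of which (chr14:105684342-105685607) had folds of 11.2 and 10.4 in controls, 11.8 and 12.002 in mutants. Gas1, a co-receptor for hedgehog ligands, flanked 5, of which a region 188 kb away (chr13:60364774-60365685) had 11.9 and 11.8 in controls, 12.2 and 10.5 in mutants. The groups overlapped at the Gas1 region and not at the Spry2 region.

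As a group, desert regions ranked higher in the mutants relative to other shared regions. Peaks were ranked only among the 18904 shared regions, so that the different lengths of the 4 lists did not enter the ranks. List length still entered the choice of regions, since a peak had to be in the shortest list, that of control 2. The median percentile of the desert regions was then 26.5 and 26.1 in controls, 29.5 and 29.97 in mutants. The means were 26.3 ± 0.325 (SD, n = 2) and 29.7 ± 0.329 (SD, n = 2), a difference of 3.43 points, and an exact permutation test over libraries gave p = 0.33, the smallest that 2 against 2 allows. Of the 1368 regions, 358 (26.2%) were higher in both mutants than in both controls, against a background of 17.6% of all shared regions. In the other direction 174 (12.7%) were lower in both mutants, against 18.0%. With a gap of more than 10 points between the groups, 6.36% were higher against 2.31% and 1.97% lower against 2.20%.

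Other rankings gave the same direction. By percentile in the whole list, 38.2% were higher in both mutants against 29.1% of all shared regions and 3.87% lower against 5.61%. With a gap over 10 points these were 11.2% against 4.19% and 0.365% against 0.466%. By fold enrichment among shared regions, 22.3% were higher against 17.4% and 13.5% lower against 17.4%. Whole-list medians were 52.6 and 38.0 in controls, 53.2 and 57.3 in mutants, a difference of means of 9.98 points (exact permutation p = 0.33). That difference was 3.25 points without control 2 and 17.7 points without control 1, with desert regions chosen from the other 3 libraries.

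The lean towards the mutants grew with distance from genes. The median difference, mutant minus control, was −0.42 points for shared regions at 1 to 10 kb, 0.17 at 10 to 100 kb, 1.16 at 100 to 200 kb, 2.79 at 200 to 500 kb and 3.78 beyond 500 kb. Beyond 500 kb, 33.8% of 198 regions were higher in both mutants and 8.08% lower. Shared regions at 1 to 100 kb that were weaker than the median desert region had 16.1% higher and 18.5% lower. Those stronger than it had 20.2% higher and 17.5% lower. Of the desert regions, the weaker 684 had 23.2% higher and 13.6% lower, and the stronger 684 had 29.1% and 11.8%. The part of peak strength in the lean was not tested. With each library left out in turn, 40.4% to 43.3% of the desert regions were higher in the mutants and 24.7% to 29.2% lower, against 32.8% to 35.1% and 33.1% to 35.8% of all shared regions. The mutant lists as a whole also held more distant peaks, 11.1% and 11.7% of peaks beyond 100 kb against 10.2% and 8.59% in the controls, a difference of 1.99 points (exact permutation p = 0.33). It was 0.889 points when equal numbers of top-ranked peaks were taken from each list and 1.18 points without control 2. The part of read depth, signal-to-noise ratio or cell composition in these values was not tested.

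Counts for single deserts and lists are read beside 26.2% higher and 12.7% lower of all desert regions, and 17.6% and 18.0% of all shared regions. Of the 10 regions between Zeb2 and Acvr2a, 5 were higher and 1 lower in both mutants, and their median percentiles were 27.7 and 33.1 in controls, 49.7 and 43.8 in mutants. Of the 8 between Agtr1b and Tbl1xr1, 5 were higher and 0 lower. Of the 10 between Slc10a2 and Efnb2, 5 were higher and 1 lower. The 11 regions between Cdh11 and Cdh5 had 1 higher and 2 lower, with medians of 37.0 and 29.8 in controls, 29.9 and 30.3 in mutants. Regions beside guidance and adhesion genes had 55 higher and 14 lower of 175, those beside bone and cartilage regulators 6 and 0 of 19, and those beside the AP-1, NFI, TEAD, EBF and KLF list 8 and 4 of 34. Palate factors had 4 and 2 of 16, neural crest factors 10 and 5 of 33, and patterning genes 16 and 8 of 47. FGF, WNT and hedgehog genes had 8 and 4 of 38, and BMP, TGF-beta and activin genes 2 and 2 of 16. Muscle regulators had 3 and 1 of 10, neuron regulators 2 and 2 of 16, endothelial and blood regulators 1 and 3 of 17, and olfactory receptor genes 1 and 0 of 4. No test was made of differences between deserts or lists.

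The 5 regions with the widest gap towards the mutants by percentile in the whole list had control percentiles among shared regions of 13.4 or lower, and ranking by the gap among shared regions would name others. Between Bckdhb and Tent5a (chr9:85173857-85174986) the folds were 5.62 and 5.03 in controls, 7.79 and 8.63 in mutants, and the percentiles among shared regions 2.31 and 1.07 against 34.1 and 40.8. Between Sec61b and the nuclear receptor gene Nr4a3 (chr4:47651103-47652399) the folds were 4.68 and 5.85 against 7.52 and 7.31. In both the mutants stood clear above the controls. In the opposite direction, a region between Pdcd1 and Fam174a (chr1:94581798-94582935) had folds of 9.27 and 8.86 in controls, 7.14 and 6.24 in mutants. A region between Dact1 and Daam1, both genes of WNT signalling (chr12:71470945-71471906), had 6.19 and 7.60 against 5.01 and 4.71. Its percentiles among shared regions were 6.20 and 32.9 in controls, 0.918 and 0.299 in mutants, so both mutants lay near the bottom of the ranks. These regions were selected for their gap, so their values are a description without a test.

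The most distant region lay 2188 kb from Pik3c3 and 2323 kb from Celf4 on chromosome 18, with folds of 9.75 and 11.4 in controls, 10.4 and 8.51 in mutants. A region between Tenm3 and Aga (chr8:51522490-51523842) lay 1989 kb from the nearer gene, with 10.3 and 8.83 in controls, 11.5 and 10.96 in mutants. A second region in that desert (chr8:51740136-51741194) had 6.61 and 6.23 in controls, 8.09 and 7.40 in mutants. The other regions among the 5 most distant had lower folds than the first Tenm3 to Aga region in every library. Against the second they were higher in some libraries and lower in others. One between Olfm4 and Pcdh17 had 8.97 and 6.73 in controls, 5.41 and 6.56 in mutants, and one between Pcdh20 and Pcdh9 had 6.51 and 8.19 in controls, 5.65 and 8.60 in mutants. Just inside 100 kb, at 100.1 kb, a region between Rspo3 and Cenpw had folds of 7.22, 5.62, 6.82 and 7.55 in control 1, control 2, mutant 1 and mutant 2, and just outside, at 99.9 kb, lay a region between Btg1 and Gm46240 whose lowest percentile was 37.5. Of the 3 widest regions kept, the first, of 1939 bp between Dmrt2 and Smarca2, had a lowest percentile of 8.39, the next, between Tenm3 and Aga, 43.1, and the last, between Zfat and Khdrbs3, 94.3.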

How the data were processed

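ATAC-seq peak lists of 4 libraries were used, grouped as 2 control and 2 mutant by the genotypes in the labels. The authors deposited 1 list of 10 columns per library, holding positions, a score, a fold enrichment (a ratio), a −log10 p-value, a −log10 q-value and a summit for each peak. Per the submitters' processing notes the build was mm10. Aligner, peak caller, settings and any shift for the transposase were not given in the sources used here. Gaps in the numbers of the deposited peak names show that an unstated step removed peaks once they had been numbered. Without read counts, depth is unknown and peaks carry no counting error.

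Peaks were merged across libraries where they shared at least 1 bp. Distances were taken from midpoints to 21631 protein-coding gene spans of the RefSeq table of GRCm38.p6, the same build. Deserts were gaps between neighbouring genes, and density used only sequence beyond 100 kb from genes. Percentiles ranked the deposited −log10 p. Libraries were compared by a two-sided exact permutation test, and regions by counts beside those of all shared regions. Distances, merging and ranking were checked on simulated data. The check of ranking first fell short of its pass mark, and it passed after the simulation was redrawn with fewer raised regions. It therefore does not cover data in which many regions differ.

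The members and gene lists were chosen with earlier results of these data known. Named were the 12 deserts with most regions, and among regions the 10 highest by lowest percentile, the 5 farthest, the 5 widest gaps in each direction by whole-list percentile, the 3 nearest each limit, Shox2, Nkx2-5 and up to 5 genes of each list with most regions; the text gives a selection of these. Gas1, Spry2 and Osr1 regions were picked as the strongest after their values were seen, as were the promoters shown. The main tests did not pair libraries by replicate number, and the labels do not say whether the numbers mark pairs. Member sequences and their motifs were not analysed here, since no genome was used. Some results are not reported here. Python 3.11.15, pandas 2.3.3, numpy 2.4.6, scipy 1.17.1 and matplotlib 3.10.9 were used.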

Additional observations from a re-analysis of the deposited data

How the results depend on the processing

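The number of desert regions, 1368, followed the limits that define them: 2078 beyond 50 kb, 768 beyond 200 kb, 259 beyond 100 kb of every gene, 622 under 1000 bp wide, 379 from the upper 50% of each list, and 1444 to 1936 with a library left out. Deserts holding a region went from 613 to 1002 at 50 kb, 364 at 200 kb and 277 in the upper 50% of each list, and 9, 7 and 3 of the 12 fullest deserts remained.

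The share lower in both mutants, 3.87% by whole-list percentile, was 7.46% by fold enrichment, 12.7% among shared regions and 0.365% with a gap over 10 points, and the share higher was 11.2% with that gap. With a library left out, the share higher ran from 42.6% to 75.05% and the share lower from 6.62% to 22.9%. The upper end, 75.05%, was without control 1, which leaves the short list of control 2 as the only control, and 22.9% was without control 2. Among shared regions, where list length enters the choice of regions but not the ranks, the ranges were 40.4% to 43.3% and 24.7% to 29.2%. Groups of 1 library are easier to separate, so these are read against all shared regions. The share lower beyond 500 kb was 8.08%. Splits by distance, strength, chromosome X and non-coding genes, the fold ranking among shared regions and the libraries left out there were chosen after seeing the data. In every such subset of the desert regions the share higher exceeded the share lower.

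List densities relative to all deserts reversed in 5 cases. Epithelial regulators went from 0 to 1.25 at 50 kb, and neuron regulators from 0.986 to 1.34 at 200 kb and 1.11 in the upper 50%. In the upper 50%, neural crest factors went to 0.880 and bone and cartilage regulators to 0.954. The cause was not tested.

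With a replicate block, that is with differences paired by replicate number, the values were 9.98 points for the median percentile and 1.99 points for the share of distant peaks, each with an exact permutation p = 0.5, the smallest that 2 pairs allow. Over the desert regions, the correlation of deviations from the group means between libraries of the same number was −0.00714. With 2 libraries a group both pairs give the same value, so it cannot show whether libraries of the same number shared a batch. With 2 libraries a group, the exact permutation test over libraries could not pass a threshold of 0.05.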
